A study of Mus musculus with 30 samples.

Results

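The core pluripotency factors are Pou5f1, Nanog and Sox2, the genes of the transcription factors OCT4, NANOG and SOX2. They were taken by symbol, as 3 of the 20563 genes in a table of normalised counts for 30 libraries of mouse cells. The libraries came from 5 embryonic stem (ES) cell lines at day 0, day 4 and day 8 of embryoid body differentiation, with 2 libraries in each of 15 groups. Day 0 cells were plated on gelatin in medium with serum and leukaemia inhibitory factor (LIF), a cytokine that holds mouse ES cells in self-renewal. Embryoid bodies are aggregates that form in suspension without LIF and begin to make cells of the germ layers. The lines were a Pali wild type, a Pali1 knockout (genotype Pali1-/-), a double knockout that also lacks Pali2 (Pali1-/-, Pali2-/-), a second wild type named C129, and an Aebp2 gene trap (Aebp2gt/gt), each used at all 3 times. No label names the parent of the Aebp2 line, which was set against C129 because the design text lists it next after C129. PALI1, PALI2 and AEBP2 are accessory proteins of Polycomb repressive complex PRC2, which methylates lysine 27 of histone H3. The strain of the lines and whether each is a single clone are not stated in the labels.

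OCT4 carries a POU domain that binds the octamer motif, SOX2 carries an HMG box, and the pair bind together at composite sites where the motifs lie side by side. NANOG is a homeodomain protein that is dispensable for holding a mouse ES cell culture but stabilises it against differentiation. The 3 proteins bind one another's genes and each other's targets. On exit from pluripotency NANOG is lost early, OCT4 persists through the primed epiblast, and SOX2 is retained in the neural lineage, where it serves neural progenitors.

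The stretches upstream of an annotated start of each gene are shown because the factors are known to act on their own genes. They are from RefSeq on GRCm38.p6, the plus strand, 5′ to 3′. Each ends before the first start annotated in RefSeq or GENCODE, which is GENCODE's for Pou5f1, shared for Nanog, and RefSeq's for Sox2, 410 bases before the start of Sox2 in GENCODE. Capitals mark every match, on either strand, to ATGCAAA (the first letters of the octamer ATGCAAAT) and to the SOX motif ACAATG, and in Nanog also the 1 base between such a pair.

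Pou5f1 chr17:35505782-35506017: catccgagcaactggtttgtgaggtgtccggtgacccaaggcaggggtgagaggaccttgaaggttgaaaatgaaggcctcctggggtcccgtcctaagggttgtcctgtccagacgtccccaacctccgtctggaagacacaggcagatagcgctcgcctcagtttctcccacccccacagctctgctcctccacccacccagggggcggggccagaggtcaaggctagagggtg
Nanog chr6:122707239-122707488: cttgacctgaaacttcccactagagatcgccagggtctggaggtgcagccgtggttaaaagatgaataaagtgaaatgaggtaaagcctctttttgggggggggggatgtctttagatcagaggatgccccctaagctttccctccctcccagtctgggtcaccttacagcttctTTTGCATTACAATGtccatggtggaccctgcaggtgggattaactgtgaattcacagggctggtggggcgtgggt
Sox2 chr3:34649745-34649994: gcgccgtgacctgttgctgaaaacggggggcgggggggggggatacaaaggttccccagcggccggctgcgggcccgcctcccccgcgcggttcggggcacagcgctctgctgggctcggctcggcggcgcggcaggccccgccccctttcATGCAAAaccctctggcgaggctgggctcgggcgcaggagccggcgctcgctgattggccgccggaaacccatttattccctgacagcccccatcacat

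The Nanog stretch holds TGCAT, then 1 base, then ACAATG, at chr6:122707416-122707427, the layout of an OCT4 and SOX2 composite site. It begins 73 bases before the first annotated start and 149 bases before the second. The minus-strand match to ATGCAAA at chr6:122707414-122707420 overlaps it by the letters TGCAT. Among 32851 RefSeq windows of 300 bases around gene starts, 0.0274% held this layout on either strand, 9 windows in all, of which 2 are the overlapping windows of Nanog. The Sox2 stretch holds ATGCAAA 99 bases before the RefSeq start, a motif found in 4.63% of all windows, and ACAAAG (18.7% of windows, here in lower case) 206 bases before it. The Pou5f1 stretch holds no match to these letters, and a window at a later Pou5f1 start, at position 35508807, holds ACAATG 158 bases upstream, as do 12.6% of all windows. The full octamer, found in 1.74% of windows, was in none of the 5 windows of the 3 genes. The stretches also differ in CpG dinucleotides, which number 27 upstream of Sox2, 8 upstream of Pou5f1 and 3 upstream of Nanog. These matches are descriptions of letters in a window, and no binding was measured.

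In GRCm38 Pou5f1 is at chr17:35506018-35510772, Nanog at chr6:122707489-122714633 and Sox2 at chr3:34650405-34652461, all on the plus strand. Sox2 is a single exon that lies within a longer noncoding gene of the same strand, Sox2ot (chr3:34104270-34682619), whose level ran from 78.0 to 209. The table also holds 2 relatives that could share reads with Pou5f1. Pou5f1-rs4 ran from 0 to 8.47, and Pou5f2 from 0.798 to 15.2.

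The columns summed to between 15470100 and 18336800, and the depth estimated from the steps between low values was 13198293 to 28151934 reads. The labels call the samples biological duplicates without saying what separates them, so the p-values reflect only how far such duplicates differ, which may be technical. Aebp2, the trapped gene, measured 17.1 to 66.4 in the 6 gene-trap libraries and 1232 to 2784 in the other 24. For the double knockout, the description of replicate 1 names the other culture state at day 0 and at day 4, whereas title, source name and growth protocol name the same state, and these were followed. Across genes, the day 0 library correlated best with its own duplicate, while both day 4 libraries of that line correlated best with Pali1 knockout day 4 replicate 2. Pali wild-type day 8 replicate 2 correlated best with a day 4 library, and its summed endoderm markers were 26305 against 8384 in its duplicate.

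All 3 genes were abundant throughout, and no library was without them. Ranked by value among the 20563 genes of a library, Pou5f1 stood between place 78 and place 1346, Nanog between 136 and 944, and Sox2 between 223 and 560. Pou5f1 ran from 2525 to 23514 normalised counts with a median of 15845, Nanog from 3347 to 17341 with a median of 7254, and Sox2 from 4770 to 11483 with a median of 7624. The range was thus widest for Pou5f1 and narrowest for Sox2. Levels of different genes were compared per kilobase of the longest coding transcript, which has 1362 bases for Pou5f1, 2211 for Nanog and 2057 for Sox2. Per kilobase Pou5f1 was the highest of the 3 in 29 of 30 libraries, followed by Sox2 in 19 and by Nanog in 10. In the remaining library, C129 wild-type day 8 replicate 2, Sox2 was highest. The median level per kilobase at day 0 was 15399 for Pou5f1, 6031 for Nanog and 5079 for Sox2, and at day 8 it was 6874, 2700 and 3078.

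Day 0 levels of Pou5f1 hardly separated the lines, whereas those of Nanog did. Pou5f1 group means at day 0 ran from 19803 in the double knockout to 22052 in the Aebp2 gene trap, and these were the 5 highest of its 15 group means. Nanog means at day 0 ran from 8887 in the double knockout to 15982 in C129, and the double knockout's pair overlapped the pair of the Aebp2 gene trap at day 8. Sox2 means at day 0 ran from 9269 in C129 to 11464 in the Pali1 knockout. The lowest mean of each gene was that of C129 at day 8, at 4134 for Pou5f1, 3900 for Nanog and 4896 for Sox2, and for each gene its pair lay below all other libraries. The order of the Pou5f1 groups in between was not one of time alone. C129, the Pali1 knockout and the Aebp2 gene trap at day 4 (19121, 17297 and 16401, neighbours whose pairs overlapped) stood above a band of overlapping pairs from 10547 down to 9282 that held the Aebp2 gene trap at day 8, the double knockout at days 4 and 8 and the Pali wild type at day 4.

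**Figure D1:**
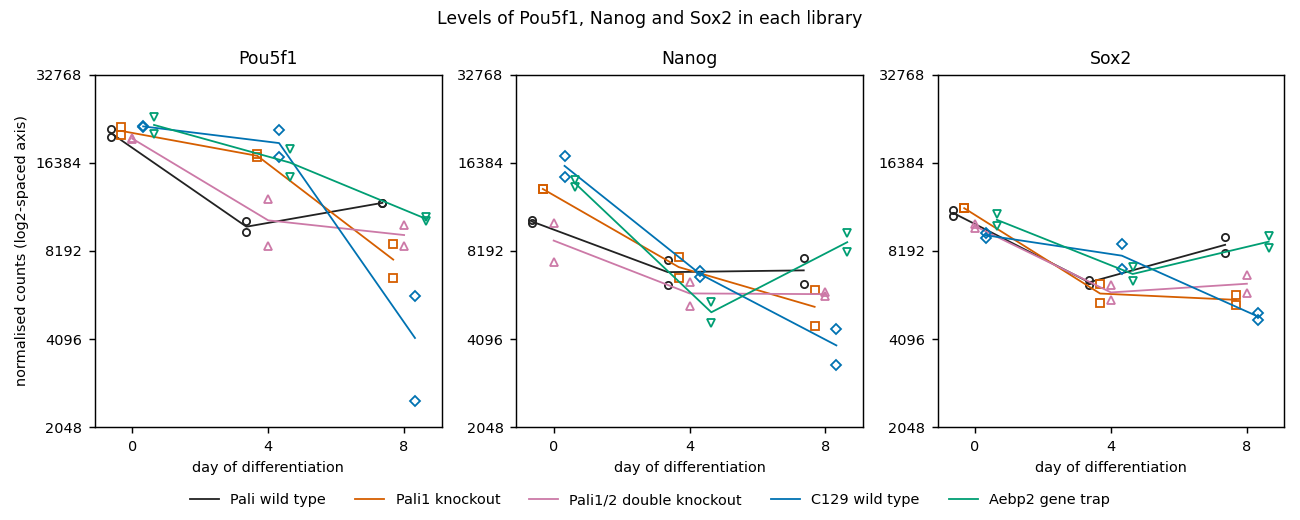
Normalised counts of Pou5f1, Nanog and Sox2 (log2-spaced axis) against day of differentiation, with 1 symbol per library and a line through the mean of each group's 2 libraries, the lines being set slightly apart sideways at each day. Pou5f1 stays between 17101 and 21141 at day 4 in C129 wild-type cells before its fall to 5742 and 2525, Nanog is below its day 0 level in each line at day 4, and Sox2 spans the narrowest range.

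Changes were tested with limma on log2(value + 4) over 15712 genes, with all 15 groups sharing 1 estimate of the spread, and a gene is here said to have been called, or to have risen or fallen, at a Benjamini-Hochberg adjusted p under 0.05. Every change is a difference of group means on that log2 scale with 2 libraries a group. Whether 2 pairs of libraries overlap is given as description and is not a test. With so few libraries pairs can lie apart by chance, and the share of all genes whose pairs do so is not given. The standard error of a difference between groups was 0.253 for Pou5f1, 0.173 for Nanog and 0.103 for Sox2 in every comparison, so a smaller change could be called for Sox2 than for Pou5f1. Of the Pou5f1 residual sum of squares, 64.9% came from the C129 day 8 pair, and without that group its pooled SD was 0.165 in place of 0.268. Leaving out either library of that pair also takes its spread out of the fit. A Pou5f1 call kept in such a fit is therefore a weak check. In whole-culture RNA, fewer cells that express a gene and less RNA per cell cannot be told apart.

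In Pali wild-type cells the 3 genes fell in the first 4 days and then stayed or recovered in part. Pou5f1 measured 20101 and 21356 at day 0, 10339 and 9482 at day 4, and 11925 and 11979 at day 8. Nanog measured 10228 and 10418, then 6245 and 7624, then 7736 and 6328. Sox2 measured 11283 and 10784, then 6282 and 6526, then 9161 and 8031. Both later pairs lay below the day 0 pair for each gene, and for Sox2 and Pou5f1 the day 8 pair lay above the day 4 pair without overlap. From day 0 to day 4 all 3 were called, as were 27.3% of all genes, with changes of -1.06 for Pou5f1 (adjusted p 0.00414), -0.58 for Nanog (0.0182) and -0.78 for Sox2 (2.01e-05). From day 4 to day 8 only 2.81% of genes were called, Sox2 among them with a rise of 0.42 (adjusted p 0.0322), while Pou5f1 gave 0.27 (0.684) and Nanog 0.02 (0.998). Between day 0 and day 8 all 3 were called, beside 25.8% of genes, with changes of -0.79 for Pou5f1 (0.0284), -0.56 for Nanog (0.0239) and -0.36 for Sox2 (0.0145). Most of these calls were lost without 1 library or another. The day 8 fall of Pou5f1 was lost without any 1 of its 4 libraries (-0.84 to -0.75). That of Nanog was lost without day 8 replicate 2 (-0.42) or either day 0 library (-0.57 and -0.55), and that of Sox2 without day 8 replicate 2 (-0.27) or day 0 replicate 1 (-0.33). The Nanog fall to day 4 was lost without day 4 replicate 1 (-0.44) or either day 0 library (-0.59 and -0.57), and the later Sox2 rise without day 4 replicate 1 (0.39), day 4 replicate 2 (0.45) or day 8 replicate 1 (0.33). That rise was not called under TMM rescaling (adjusted p 0.0525) or plain variance moderation (0.0692).

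In the Pali1 knockout Nanog and Sox2 fell by day 4, and Pou5f1 fell after it. Pou5f1 measured 21735 and 20336 at day 0, 17511 and 17082 at day 4, and 8666 and 6640.4 at day 8. Nanog measured 13347 and 13319.9, then 6642 and 7790, then 6012 and 4549. Sox2 measured 11444 and 11483, then 5429 and 6294, then 5816 and 5339. The pairs of successive days did not overlap for Pou5f1 and Nanog, and for Sox2 the day 4 and day 8 pairs did. From day 0 to day 4, when 30.5% of genes were called, Nanog fell by 0.89 (adjusted p 0.000723) and Sox2 fell by 0.97 (1.73e-06), and Pou5f1 gave -0.28 (0.456). From day 4 to day 8, with 14.5% of genes called, Pou5f1 fell by 1.19 (0.00425), and Nanog gave -0.46 (0.0871) and Sox2 -0.07 (0.740). Over the 8 days all 3 fell, as 42.1% of genes were called, with changes of -1.47 for Pou5f1 (0.000155), -1.35 for Nanog (7.43e-06) and -1.04 for Sox2 (4.28e-07). Without day 8 replicate 2 the later fall of Pou5f1 was -1.0 and no longer called, and without day 8 replicate 1 Nanog fell by 0.66 over the same days and was called.

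In the double knockout the falls came by day 4, and no member was called after it. Pou5f1 measured 19672 and 19934 at day 0, 12329 and 8509 at day 4, and 8505 and 10058 at day 8. Nanog measured 10242 and 7531, then 6432 and 5301, then 5927 and 5738. Sox2 measured 9789.9 and 10111, then 5554 and 6272, then 6774 and 5887. Each later pair lay below the day 0 pair, and the day 4 and day 8 pairs overlapped for each gene. From day 0 to day 4 the 3 genes were called beside 27.5% of all genes, with changes of -0.95 for Pou5f1 (adjusted p 0.00907), -0.59 for Nanog (0.0168) and -0.75 for Sox2 (3.57e-05). Between day 4 and day 8, 7.95% of genes were called and none of the 3, which gave -0.15 for Pou5f1, -0.0018 for Nanog and 0.10 for Sox2, with adjusted p from 0.667 to 1. Between day 0 and day 8, with 30.9% of genes called, Pou5f1 fell by 1.10 (0.003), Nanog fell by 0.59 (0.0148) and Sox2 fell by 0.66 (0.000111). Without both libraries whose description conflicts, the falls to day 4 were -1.23 for Pou5f1 and -0.69 for Sox2 and those to day 8 -1.11 and -0.68, all called, whereas Nanog gave -0.51 and -0.37 and was called at neither day. Without day 0 replicate 1 alone, Nanog gave -0.37 at each day. Without day 4 replicate 2 the first fall of Pou5f1 was -0.68 and that of Nanog -0.45, neither of them called, and the day 8 call of Nanog was also lost without day 8 replicate 1 (-0.61) or replicate 2 (-0.57).

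C129 wild-type cells showed the widest falls of Pou5f1 and Nanog, and these came at different times. Pou5f1 measured 21926 and 21670.1 at day 0, 21141 and 17101 at day 4, and 5742 and 2525 at day 8. Nanog measured 17341 and 14623, then 6662 and 6976, then 4452 and 3347. Sox2 measured 9438 and 9099, then 8654 and 7131, then 5022 and 4769.8. No 2 days overlapped for any of the genes, but the day 4 Pou5f1 and Sox2 pairs lay close to those of day 0. From day 0 to day 4, with 29.1% of genes called, Nanog fell by 1.22 (adjusted p 4.20e-05), and Pou5f1 gave -0.20 (0.620) and Sox2 -0.24 (0.0939). From day 4 to day 8 all 3 fell, in a comparison that called 30.8% of genes, with changes of -2.32 for Pou5f1 (4.11e-06), -0.82 for Nanog (0.00152) and -0.68 for Sox2 (8.27e-05). Over the 8 days, in which 45.8% of genes were called, Pou5f1 fell by 2.52 (3.49e-07), Nanog fell by 2.04 (4.64e-08) and Sox2 fell by 0.92 (1.01e-06). The Nanog and Sox2 calls over 8 days held without each of their libraries in turn. Pou5f1 at day 8 differed more than 2-fold within the pair, and its 8-day change ran from -3.11 to -1.92 without 1 library at a time. Its call was kept, but in fits that lose the spread of that pair. Replicate 2, the lower library of that pair, also had the higher sums of fibroblast and feeder cell markers (12881 against 6387 in its duplicate) and of trophoblast markers (12868 against 8521), whose part in the Pou5f1 level was not tested. Without day 4 replicate 1, Sox2 was called by day 4 (-0.38).

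In the Aebp2 gene-trap line Nanog and Sox2 fell by day 4 and rose again by day 8, while Pou5f1 was lower at day 8 than at day 0. Pou5f1 measured 20591 and 23514 at day 0, 14608 and 18194 at day 4, and 10363 and 10731 at day 8. Nanog measured 13494 and 14317, then 5472 and 4646, then 9414 and 8134. Sox2 measured 9979.7 and 10945, then 7217 and 6452, then 9229 and 8392. No 2 days overlapped for any of the 3, and for Nanog and Sox2 the day 8 pair lay between the others. From day 0 to day 4, when 30.6% of genes were called, Nanog fell by 1.46 (adjusted p 5.24e-06) and Sox2 fell by 0.61 (0.00017), and Pou5f1 gave -0.43 (0.224). From day 4 to day 8, when 8% of genes were called, Nanog rose by 0.79 (0.00865) and Sox2 by 0.37 (0.0347), and Pou5f1 gave -0.63 (0.146). Between day 0 and day 8, with 31.3% of genes called, Pou5f1 fell by 1.06 (0.00369) and Nanog fell by 0.67 (0.00662), and Sox2 gave -0.25 (0.0773). The rise of Nanog was not called without day 4 replicate 2 (0.68) or day 8 replicate 1 (0.69), nor that of Sox2 without day 4 replicate 2 (0.29), day 8 replicate 1 (0.30) or day 8 replicate 2 (0.44), nor in a fit of the C129 and Aebp2 libraries alone (adjusted p 0.114), under TMM rescaling (0.0515) or under plain moderation (0.0688). The Nanog fall over 8 days was lost without day 8 replicate 2 (-0.56) or day 0 replicate 2 (-0.62).

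The proportions of the 3 genes to one another differed between days and lines. Per library, Nanog divided by Pou5f1 had a median of 0.432 at day 4, with the lowest value, 0.255, in Aebp2 gene-trap replicate 2 and the highest, 0.804, in Pali wild-type replicate 2. At day 4 this ratio was 0.604 and 0.804 in the Pali wild type and 0.522 and 0.623 in the double knockout. It was 0.379 and 0.456 in the Pali1 knockout, 0.315 and 0.408 in C129 and 0.375 and 0.255 in the Aebp2 gene trap, so that the former 2 lines and the latter 3, grouped here from the values, did not overlap. Sox2 divided by Pou5f1 ran from 0.420 to 0.565 at day 0 and from 0.585 to 1.89 at day 8, without overlap between these days over all 5 lines. The highest value, 1.89, was that of C129 day 8 replicate 2, whose Pou5f1 was the lowest of all, and its duplicate gave 0.875. These ratios are of normalised counts not divided by length, and serve to compare libraries.

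**Figure D2:**
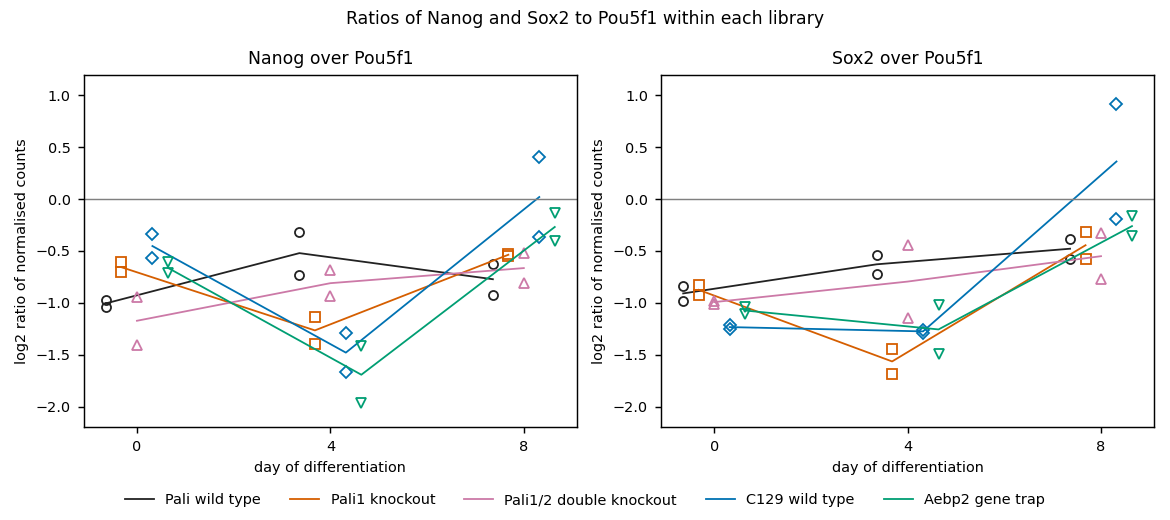
Log2 ratio of Nanog to Pou5f1 (left) and of Sox2 to Pou5f1 (right) within each library against day of differentiation, with 1 symbol per library, a line through each group's mean, and lines set slightly apart sideways. At day 4 the Pali1 knockout, C129 and the Aebp2 gene trap lie lowest for Nanog over Pou5f1, and at day 8 only C129 replicate 2 lies above 0 in either panel.

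The mutants address how loss of a PRC2 accessory protein bears on gene expression over differentiation. In the Pali1 knockout Sox2 was lower than in wild type at day 8, and no other member was called at any day. The day 8 Sox2 values of 5816 and 5339 lay below the wild type's 9161 and 8031 without overlap, a difference of -0.62 (adjusted p 0.000642) in a comparison that called 13.6% of genes, and the call held without each library in turn. Pou5f1 (8666 and 6640.4 against 11925 and 11979, -0.66, adjusted p 0.0985) and Nanog (6012 and 4549 against 7736 and 6328, -0.42, 0.123) also lay below without overlap and were not called. At day 4, where 2.67% of genes were called, Pou5f1 pointed the other way, at 17511 and 17082 against 10339 and 9482 (0.80, 0.111). In a fit of the Pali libraries alone, which leaves out the wide C129 day 8 pair, the Pou5f1 differences at day 4 (adjusted p 0.0195) and at day 8 (0.0175) were both called. Nanog and Sox2 gave 0.06 and -0.13 at day 4. At day 0, with 4.79% of genes called, Nanog was 13347 and 13319.9 against 10228 and 10418 (0.37, 0.284), Pou5f1 gave 0.02 and Sox2 0.06.

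The double knockout gave the same single call, of a smaller size. At day 8 Sox2 was 6774 and 5887 against 9161 and 8031, a difference of -0.44 (adjusted p 0.0156) where 7.21% of genes were called, and it was lost without wild-type replicate 1 (-0.35) or double-knockout replicate 2 (-0.34). Pou5f1 gave -0.37 (0.445) and Nanog -0.26 (0.425) at day 8, again with pairs that did not overlap. At day 4, with 2.07% of genes called, the 3 genes gave 0.05, -0.24 and -0.12, and at day 0, with 3.67% called, -0.07, -0.23 and -0.15, in the order Pou5f1, Nanog and Sox2. Both Pali mutants are set against the same wild-type libraries, so the Sox2 differences share them. Set directly against the Pali1 knockout, the double knockout had no called member at day 0 (3.07% of genes called), day 4 (1.38%) or day 8 (1.37%). The widest of these differences were Nanog at day 0, 10242 and 7531 against 13347 and 13319.9 (-0.60, adjusted p 0.0705), and Pou5f1 at day 4, 12329 and 8509 against 17511 and 17082 (-0.76, 0.175). The first was called without double-knockout day 0 replicate 1 (-0.82), whose description conflicts, and the second in the fit of Pali libraries alone (0.0372).

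In the Aebp2 gene trap all 3 genes were higher than in C129 at day 8, and none was called at the earlier days. Pou5f1 was 10363 and 10731 against 5742 and 2525, Nanog was 9414 and 8134 against 4452 and 3347, and Sox2 was 9229 and 8392 against 5022 and 4769.8, with no overlap for any. The group means were 2.55, 2.25 and 1.80 times those of C129. No label names C129 as the parent, and its day 8 means were the lowest of all groups. In the order Pou5f1, Nanog and Sox2, the gene trap's day 8 means were 10547, 8774 and 8811. Those of the Pali wild type were 11952, 7032 and 8596, and these 2 lines were not tested against each other. On the log2 scale Pou5f1 was higher by 1.47 (adjusted p 0.00049), Nanog by 1.18 (0.00012) and Sox2 by 0.85 (2.02e-05), in a comparison that called 20.1% of genes. The Nanog and Sox2 calls held without each library in turn. Without C129 replicate 2 the Pou5f1 difference was 0.88, in a fit that also loses the spread of the C129 pair. At day 4, with 9.01% of genes called, Nanog was lower without overlap, at 5472 and 4646 against 6662 and 6976 (-0.43, 0.133), and Pou5f1 gave -0.22 and Sox2 -0.20. At day 0, with 13% of genes called, the differences were 0.01 for Pou5f1, -0.20 for Nanog and 0.17 for Sox2.

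**Figure D3:**
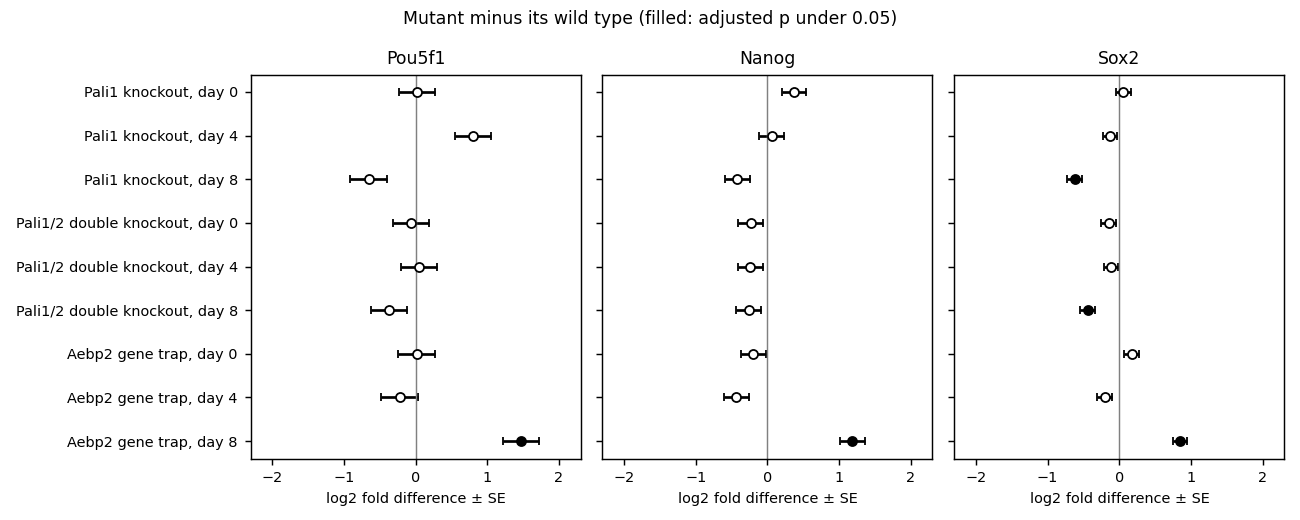
Log2 difference of each mutant from the wild type set against it (horizontal axis, with its standard error, n = 2 libraries a group) for the 3 genes at each day, filled where the adjusted p is under 0.05. For the Aebp2 gene trap, whose parent is not labelled, that wild type is C129. Of 27 values, 5 are filled, all at day 8, with Sox2 lower in both Pali mutants and each gene higher in the Aebp2 gene trap. Over these comparisons between 2.07 and 20.1% of all genes were called.

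The wild types themselves differed in Nanog at day 0, in Pou5f1 at day 4 and in all 3 genes at day 8. At day 0, with 21.1% of genes called, C129 had more Nanog, 17341 and 14623 against 10228 and 10418 in the Pali wild type (0.63, adjusted p 0.0149), and Pou5f1 gave 0.07 and Sox2 -0.25. At day 4, with 15.9% of genes called, it had more Pou5f1, 21141 and 17101 against 10339 and 9482 (0.94, 0.0166), and Nanog gave -0.02 and Sox2 0.29 (0.0603). At day 8, with 17.3% of genes called, it had less of all 3, with differences of -1.65 for Pou5f1 (0.000218), -0.86 for Nanog (0.00206) and -0.81 for Sox2 (3.38e-05). The Nanog excess at day 0 was lost without C129 replicate 1 (0.50) or either Pali library (0.61 and 0.64), and the Pou5f1 excess at day 4 without C129 replicate 1 (0.79) or either Pali library (1.00 and 0.88). Without C129 day 8 replicate 2, the day 8 Pou5f1 difference was -1.06, and that of Nanog was -0.65 and was no longer called. Sox2 at day 4 was called without C129 replicate 2 (0.43).

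Whether the lines differed in their course was tested on the change since day 0. The Aebp2 gene trap lost less of each gene than C129 by day 8, with differences in the change of 1.45 for Pou5f1 (adjusted p 0.0108), 1.38 for Nanog (0.00125) and 0.67 for Sox2 (0.00478), where 15.3% of genes were called. Without C129 day 8 replicate 2 the Pou5f1 value was 0.86, and in a fit of the C129 and Aebp2 libraries alone its adjusted p was 0.0882. C129 in turn lost more than the Pali wild type by day 8, by -1.72 for Pou5f1 (0.00369), -1.48 for Nanog (0.000607) and -0.56 for Sox2 (0.0155), beside 14.2% of genes. The Pou5f1 value was -1.13 without C129 day 8 replicate 2, and the Sox2 call was lost without that library (-0.52), C129 day 0 replicate 1 (-0.53), Pali wild-type day 8 replicate 1 (-0.46) or day 0 replicate 2 (-0.53). By day 4 only Sox2 differed between the wild types, having fallen less in C129 (0.55, 0.0254, with 8.99% of genes called), a call lost without 6 of the 8 libraries, at values from 0.41 to 0.57, and under plain moderation (adjusted p 0.0514). The Pali1 knockout lost more Sox2 than its wild type by day 8 (-0.68, 0.0127, with 5.73% of genes called), a call lost without wild-type day 8 replicate 1 (-0.58), wild-type day 0 replicate 2 (-0.64) or knockout day 8 replicate 2 (-0.62). Nanog gave -0.79 there (0.0679), and was called without knockout day 8 replicate 1 (-0.99). No member was called for the Pali1 knockout at day 4 (0.426% of genes called), for the double knockout at day 4 (0.477%) or day 8 (1.12%), or for the Aebp2 gene trap at day 4 (1.03%). In these comparisons the standard error was 0.358 for Pou5f1, 0.245 for Nanog and 0.145 for Sox2.

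**Figure D4:**
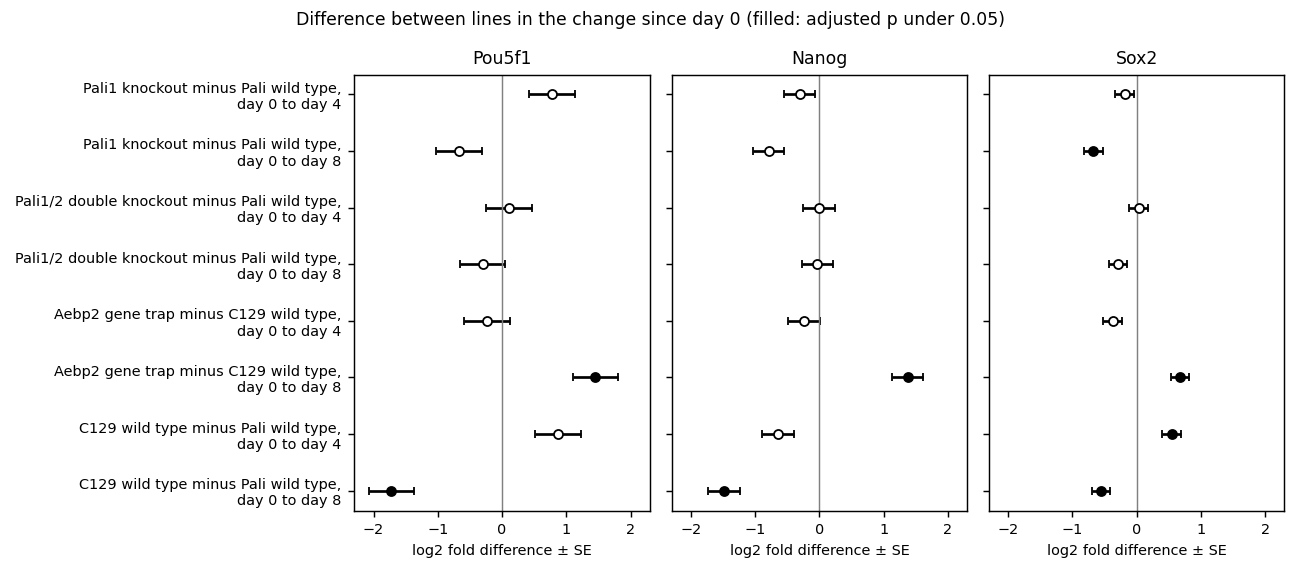
Difference between lines in the log2 change since day 0 (horizontal axis, with its standard error), for each gene and pair of lines, filled where the adjusted p is under 0.05. Of 24 values, 8 are filled, and for day 8 each gene lies to the right for the Aebp2 gene trap against C129 and to the left for C129 against the Pali wild type. Over these comparisons between 0.426 and 15.3% of all genes were called.

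At day 8 genes of the wider pluripotency circuit were called mostly in the direction of the 3 factors. The lists used here were 20 naive and ground-state transcription factors, 21 tested targets and ES-cell markers of the OCT4, SOX2 and NANOG network, 25 tested relatives with a POU or SOX domain, and 24 tested neuroectoderm genes, 3 of which (Sox1, Sox3 and Sox21) are also relatives. At day 4, when no member was called in any mutant, 7 naive factors were lower in the Pali1 knockout and 5 in the double knockout. None was higher in either, and 2.67% and 2.07% of all genes were called. In the Aebp2 gene trap at day 4, 7 were lower than in C129 and 2 higher (9.01% of all genes), the reverse of its day 8 direction. In the Aebp2 gene trap against C129 at day 8, where 20.1% of all genes were called, 13 naive factors were higher and 1 lower, with a median of 1.04 against -0.01 over all genes. Among them Zfp42 (REX1, a marker of ground-state cells) was higher by 2.28 (adjusted p 5.96e-05), Klf2 by 1.76 (1.21e-05) and the imprinting factor Zfp57 by 1.60 (1.76e-06), and Myc was the 1 lower (-1.35). Of the network's targets 17 were higher and 1 lower, with a median of 1.89. Dppa5a was higher by 2.92 (2.44e-09), Fgf4, whose enhancer is a classical joint target of OCT4 and SOX2, by 2.89 (8.03e-07) and the threonine dehydrogenase gene Tdh by 1.97 (2.79e-07), whereas Lin28a was lower (-0.82).

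Most of the relatives with a POU or SOX domain went the other way in that line. Of the 25, 15 were lower than in C129 and 2 higher, with a median of -1.15. Pou3f2 (BRN2, a neural POU factor) was lower at -4.45 (adjusted p 4.11e-06), as were Pou3f3 at -3.17 (0.000251) and Sox11 at -2.01 (2.08e-05), while Sox15 (1.78) and Pou3f1 (1.07) were higher. Of 24 neuroectoderm genes 13 were lower and 1 higher, with a median of -1.69, with Pax3 at -4.83 (1.54e-06) and En1 at -4.88 (1.82e-05). Summed over the 25 neuroectoderm markers, the level at day 8 was 4566 and 6384 in the Aebp2 gene trap and 11902 and 11850.5 in C129, with Pax7 at 0 in both libraries of the former and Zic4 at 0 in both of the latter. The endoderm markers summed to 13580 and 13234.5 against 23524 and 26544, the mesoderm markers to 654 and 727 against 1719.9 and 1704, and the fibroblast and feeder cell markers to 5067 and 6313 against 6387 and 12881. Germ cell markers summed to 6706 and 4911 against 2549 and 1887, and the trophoblast sums overlapped. The part of such cells in the levels of the 3 factors was not tested. Without C129 day 8 replicate 2 the medians were 0.84 for the naive factors, 1.44 for the targets, -1.21 for the relatives and -2.19 for the neuroectoderm genes. Fewer genes of each list were called in that fit, for which the share of all genes called is not given.

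In the Pali mutants at day 8 the lists leaned in the opposite direction. All genes called there, in either direction, were 13.6% in the Pali1 knockout and 7.21% in the double knockout. Against the same wild-type libraries, 11 naive factors were lower and 1 higher in the Pali1 knockout (median -1.06), and 7 were lower and 1 higher in the double knockout (-0.83). Mybl2 was lower in each (-1.52, adjusted p 4.50e-05, and -1.14, 0.00148), Klf5 and Stat3, the effector of LIF, are further examples in the Pali1 knockout (-1.18 and -1.16), and Myc was the 1 higher in each (0.99 and 0.89). Of the network's targets 12 were lower in the Pali1 knockout and 8 in the double knockout, and none higher, with medians of -0.80 and -0.38. Tdh (-1.65 and -0.87) and Dppa5a (-1.51 and -0.89) were lower in each. Neuroectoderm genes were called only upward, 9 of 24 in each mutant, led by En2 in the Pali1 knockout (4.02, 2.18e-05) and by Zic4 in the double knockout (5.40, 6.36e-10). Zic4 was at 0 in both libraries of every group but the double knockout and the Aebp2 gene trap at day 8. Those groups at 0 add no spread, so its low p does not measure how far duplicates differ where it is expressed. Of the 25 POU and SOX relatives, 5 were higher and 1 lower in the Pali1 knockout (median 0.15). In the double knockout 3 were higher and none lower (median 0.49). The POU gene Pou3f2 was higher in each (3.53 and 2.64). Summed neuroectoderm markers at day 8 were 17347 and 21377 in the Pali1 knockout and 18849 and 16682 in the double knockout, against 9235 and 6578 in the wild type, where Zic4 was at 0 in both libraries. Summed mesoderm markers were 1977 and 2261 in the Pali1 knockout and 1823 and 3360 in the double knockout, against 989 and 1168. Summed fibroblast and feeder cell markers were 9668 and 12929, and 12446 and 12520, against 7445 and 5498. These 3 sums were higher in both mutants without overlap. By gene, 5 of 18 mesoderm genes were called higher and 2 lower in the Pali1 knockout (median 0.59). In the double knockout 3 were higher and none lower (median 1.03). Of 12 fibroblast and feeder cell genes only 1 was called in the Pali1 knockout and 2 in the double knockout, all higher. Their medians were 0.68 and -0.01. Germ cell markers were lower in the Pali1 knockout, at 2620 and 2323 against 5340 and 3918, and the endoderm and trophoblast sums of the mutants overlapped those of the wild type. At day 0 the neuroectoderm sums were already higher without overlap (6618 and 7305, and 7586 and 8282, against 4937 and 5771). So were the fibroblast and feeder cell sums (5828 and 6831, and 5962 and 7560, against 2492 and 4686), whereas the mesoderm sums were lower. Such sums mostly follow their most abundant genes. By gene at day 0, 2 of 24 neuroectoderm genes were called higher in the Pali1 knockout (median -0.009). In the double knockout 1 was (median 0.28), beside 4.79% and 3.67% of all genes called. At day 4 the neuroectoderm sums were higher too (9498 and 10064.5, and 11690 and 13410, against 6327 and 7536). By gene, 2 of 24 were called higher there in the Pali1 knockout (median -0.03). In the double knockout 1 was higher and 1 lower (median 0.81), beside 2.67% and 2.07% of all genes called. Sox2 was not called in either mutant at those days. The part of such cells in the lower Sox2 at day 8 was not tested. Without wild-type day 8 replicate 2 the medians in the Pali1 and double knockout were 0.65 and 0.95 for neuroectoderm genes. They were -0.91 and -0.56 for targets and -1.29 and -1.06 for naive factors. Fewer neuroectoderm genes and targets were called in that fit, and not every neuroectoderm call in the Pali1 knockout was upward. The share of all genes called in it is not given.

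**Figure D5:**
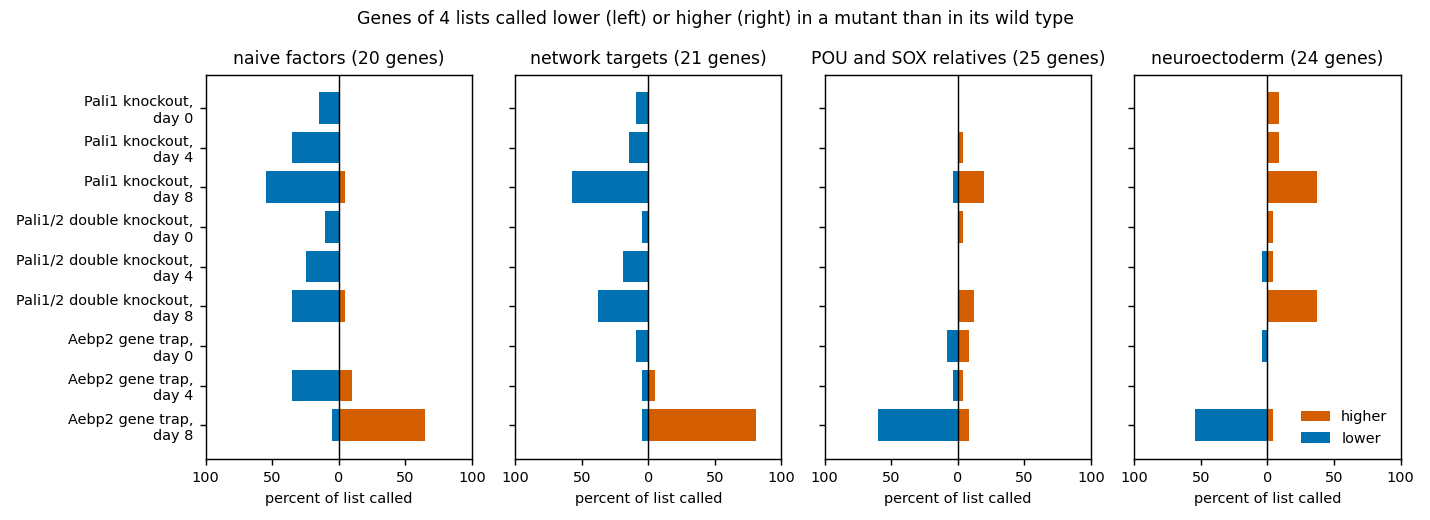
Percentage of the tested genes of 4 lists that were called lower (left) or higher (right) in each mutant than in the wild type set against it, by day. For the Aebp2 gene trap, whose parent is not labelled, that wild type is C129. At day 8 the bars of the naive factors and network targets point mostly left in both Pali mutants and mostly right in the Aebp2 gene trap, and those of the neuroectoderm genes point mostly the other way. At day 4 the bars of the naive factors point left in both Pali mutants and mostly left in the Aebp2 gene trap.

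Most naive factors fell in the first 4 days in every line, also where Pou5f1 was not called. By day 4 the number that fell was 17 of 20 in the Pali wild type, 18 in each Pali mutant and in the Aebp2 gene trap, and 16 in C129, where between 27.3 and 30.6% of all genes were called. From day 4 to day 8 the naive factors fell further in C129 (11 of 20, with 30.8% of all genes called), whereas in the Pali1 knockout, where Pou5f1 fell, 4 rose and 1 fell (14.5%). Between day 0 and day 8, 19 of 20 naive factors fell in C129 (median -2.40, with Zfp57 at -3.47), and 14 of 20 in the Pali wild type (median -1.49, Zfp57 at -2.08), beside 45.8% and 25.8% of all genes called. Of the 21 targets, 18 fell in C129 and 12 in the Pali wild type. Without day 8 replicate 2 of the line, the median of the naive factors was -2.18 in C129 and -1.28 in the Pali wild type, with fewer falls called in each. All 3 core factors fell in C129 too, and their Pali wild-type changes of -0.79 to -0.36 were smaller than the list's median. Of 13 primed epiblast genes, 10 rose from day 0 to day 4 in C129 and 7 in the Pali wild type, beside 29.1% and 27.3% of all genes called. Fgf5, which marks the primed epiblast, rose by 8.35 in the latter (adjusted p 4.96e-09). Between day 4 and day 8, 10 of 20 naive factors rose in the Aebp2 gene trap and none fell (8% of all genes called), among them Tfcp2l1 (2.21, 9.00e-05), Prdm14 (2.15) and Klf2 (1.35), over the days in which its Nanog and Sox2 rose. Such rises were not particular to that line. Over the same days 7 of 20 rose in the double knockout (7.95%), where no member was called. In the Pali wild type 5 of 20 rose (2.81%), and none fell in either line.

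Across the 30 libraries the 3 genes rose and fell together only in part. Pearson's r of log2(value + 4) was 0.84 between Nanog and Sox2, 0.76 between Pou5f1 and Nanog and 0.74 between Pou5f1 and Sox2. The libraries share their days and lines, so these values describe the set and carry no test. Among 10643 genes with a mean of at least 50, other genes tracked each of them more closely. Nanog stood at place 486 and Sox2 at place 573 in the list of genes most like Pou5f1, and Sox2 stood at place 208 in that of Nanog. Most like Pou5f1 were L1td1 (0.946), Gm14124 (0.945), Gm14139 (0.937), Dmd (0.917) and Rps4l (0.912), and most opposite were Mmd (-0.926), Plagl2 (-0.913) and Rap2a (-0.908). For Nanog the most alike were Acadm (0.934), Acot9 (0.922), Sirt1 (0.919), Cdc5l (0.914) and Depdc7 (0.911), and the most opposite Ptov1 (-0.935), Cand2 (-0.920) and Ntn3 (-0.920). Sox2 was followed most closely by Slc28a1 (0.956), Itgb7 (0.952), Ooep (0.951), Mybl2 (0.949) and Kat2b (0.942), and ran most against Fam199x (-0.933), Mmp15 (-0.927) and Fbxw8 (-0.924). L1td1 also belongs to the list of network targets and Mybl2 to the naive factors.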

How the data were processed

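Total RNA of 30 libraries (5 lines, 3 time points, 2 libraries a group) was sequenced after removal of ribosomal RNA, with strand information kept, per the labels' protocols. The authors deposited a single table of normalised counts, used here as a signal: its values are not negative and many are not whole. Kallisto 0.43.1, HISAT2 2.0.5 and DESeq2 are named in the submitters' processing notes along with mm10, but the role of each and the gene annotation are not stated there. Normalisation between libraries commonly assumes that most genes do not change, so a global change in RNA would not show. Between 81.7 and 86.1% of low values per library were whole multiples of the value of 1 read, too few to recover reads, and no count model was run.

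A gene was tested if it reached 10 in 2 or more libraries, which kept 15712 of 20563. The fit, in R 4.3.3 with limma 3.58.1, used log2(value + 4), which understates the change of low genes, with 15 group means, 15 residual degrees of freedom, and trended, robust variance moderation. Adjusted p-values are Benjamini-Hochberg values over all genes within each of 38 comparisons. The script was tested on simulated data.

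Groups follow the sample titles. Alternatives were pseudocounts of 1 and 16, no filter, a mean of at least 50, TMM and upper-quartile rescaling, plain moderation, a replicate block, fits of 1 parent's libraries, leaving out each library, and leaving out both libraries with a conflicting description. List medians and counts without day 8 replicate 2 of either wild type were an alternative chosen after seeing the data. The members and gene lists were chosen with earlier results of these data known. Genes named are the 3 members, for each member the 5 most and 3 least correlated genes, up to 3 called genes per direction and list with the lowest adjusted p, and overlapping genes or copies. Gene positions are those of GENCODE M21 (GRCm38, which mm10 names), and the upstream sequences are RefSeq's on GRCm38.p6, where all 3 members matched.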

Additional observations from a re-analysis of the deposited data

Results flagged for a closer look

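The 8 results below are differences between lines in the change since day 0 that limma called, so each is a tested difference between groups and not a call in one line beside none in another. By day 8 the Aebp2 gene trap differed from C129 by 1.45 on the log2 scale for Pou5f1, by 1.38 for Nanog and by 0.67 for Sox2, the loss being smaller in the gene trap. Over the same days C129 differed from the Pali wild type by -1.72 for Pou5f1, by -1.48 for Nanog and by -0.56 for Sox2. These 6 values share the C129 libraries. The wild types also differed by 0.55 for Sox2 by day 4, where the fall was smaller in C129, and the Pali1 knockout differed from its wild type by -0.68 for Sox2 by day 8.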

How the results depend on the processing

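Of 114 tested values of the 3 genes 50 were called, and 31 of these calls held without each library in turn. Pseudocounts of 1 and 16 and no filter on low values changed no call and no direction. Under TMM rescaling, calls were lost for Sox2 (0.41) in the Pali wild type from day 4 to day 8, Sox2 (0.36) in the Aebp2 gene trap from day 4 to day 8. There, calls were gained for Nanog (-0.52) in the Pali1 knockout from day 4 to day 8. There, uncalled values changed sign for Sox2 (-0.013) in the double knockout against the Pali1 knockout at day 4. Under plain moderation, calls were lost for Sox2 (0.42) in the Pali wild type from day 4 to day 8, Sox2 (0.37) in the Aebp2 gene trap from day 4 to day 8, Sox2 (0.55) in C129 against the Pali wild type in the change to day 4. Under upper-quartile rescaling, calls were gained for Nanog (-0.55) in the Pali1 knockout from day 4 to day 8, Sox2 (-0.30) in the Aebp2 gene trap from day 0 to day 8, Sox2 (0.33) in C129 against the Pali wild type at day 4, Nanog (-0.84) in the Pali1 knockout against the Pali wild type in the change to day 8. There, uncalled values changed sign for Sox2 (-0.0095) in the double knockout against the Pali1 knockout at day 4, Nanog (0.014) in C129 against the Pali wild type at day 4. With a filter at a mean of 50, calls were gained for Sox2 (0.29) in C129 against the Pali wild type at day 4. In fits of the libraries of 1 parent only, calls were lost for Sox2 (0.37) in the Aebp2 gene trap from day 4 to day 8, Pou5f1 (1.45) in the Aebp2 gene trap against C129 in the change to day 8. There, calls were gained for Pou5f1 (0.80) in the Pali1 knockout against the Pali wild type at day 4, Pou5f1 (-0.66) in the Pali1 knockout against the Pali wild type at day 8, Pou5f1 (-0.76) in the double knockout against the Pali1 knockout at day 4. Without both double-knockout libraries with a conflicting description, calls were lost for Nanog (-0.51) in the double knockout from day 0 to day 4, Nanog (-0.37) in the double knockout from day 0 to day 8. There, calls were gained for Nanog (-0.82) in the double knockout against the Pali1 knockout at day 0. There, uncalled values changed sign for Pou5f1 (0.12) and Nanog (0.14) in the double knockout from day 4 to day 8, Pou5f1 (-0.22) in the double knockout against the Pali wild type at day 4, Pou5f1 (-0.16) and Nanog (0.075) in the double knockout against the Pali wild type in the change to day 4, Nanog (0.19) in the double knockout against the Pali wild type in the change to day 8.

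Across the 105 pairs of groups, replicate differences over all genes correlated at -0.0785 to 0.109 with a median of 0.0227, and 1 pair exceeded 0.1. Such values over all genes cannot exclude a shared replicate difference in single genes. At day 8 replicate 2 lay below replicate 1 in every line for Nanog and for Sox2. The replicate block fits a single shift over all days, so a shift of day 8 alone was not tested. With the replicate number as a replicate block, calls were gained for Nanog in the double knockout against the Pali1 knockout at day 0 (-0.60, adjusted p 0.0400) and Nanog in the Pali1 knockout against the Pali wild type in the change to day 8 (-0.79, adjusted p 0.0393), and the call of the other 112 values was kept.

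Without 1 library at a time, values whose call or sign changed ran over these ranges. Nanog gave -0.72 to -0.44 in the Pali wild type from day 0 to day 4. Nanog gave -0.12 to 0.16 and Sox2 gave 0.33 to 0.52 in the Pali wild type from day 4 to day 8. Pou5f1 gave -0.84 to -0.75, Nanog gave -0.71 to -0.42 and Sox2 gave -0.46 to -0.27 in the Pali wild type from day 0 to day 8. Pou5f1 gave -1.38 to -1.0, Nanog gave -0.66 to -0.26 and Sox2 gave -0.18 to 0.038 in the Pali1 knockout from day 4 to day 8. Pou5f1 gave -1.22 to -0.68 and Nanog gave -0.81 to -0.37 in the double knockout from day 0 to day 4. Pou5f1 gave -0.41 to 0.12, Nanog gave -0.14 to 0.14 and Sox2 gave -0.0036 to 0.20 in the double knockout from day 4 to day 8. Nanog gave -0.81 to -0.37 in the double knockout from day 0 to day 8. Sox2 gave -0.38 to -0.10 in C129 from day 0 to day 4. Nanog gave 0.68 to 0.91 and Sox2 gave 0.29 to 0.45 in the Aebp2 gene trap from day 4 to day 8. Nanog gave -0.77 to -0.56 in the Aebp2 gene trap from day 0 to day 8. Pou5f1 gave -0.027 to 0.069 in the Pali1 knockout against the Pali wild type at day 0. Nanog gave -0.084 to 0.20 in the Pali1 knockout against the Pali wild type at day 4. Pou5f1 gave -0.22 to 0.32 in the double knockout against the Pali wild type at day 4. Sox2 gave -0.54 to -0.34 in the double knockout against the Pali wild type at day 8. Pou5f1 gave -0.082 to 0.11 in the Aebp2 gene trap against C129 at day 0. Nanog gave -0.82 to -0.38 in the double knockout against the Pali1 knockout at day 0. Sox2 gave -0.093 to 0.12 in the double knockout against the Pali1 knockout at day 4. Nanog gave -0.044 to 0.36 in the double knockout against the Pali1 knockout at day 8. Nanog gave 0.50 to 0.75 in C129 against the Pali wild type at day 0. Pou5f1 gave 0.79 to 1.09, Nanog gave -0.16 to 0.13 and Sox2 gave 0.16 to 0.43 in C129 against the Pali wild type at day 4. Nanog gave -1.06 to -0.65 in C129 against the Pali wild type at day 8. Nanog gave -0.99 to -0.59 and Sox2 gave -0.77 to -0.58 in the Pali1 knockout against the Pali wild type in the change to day 8. Pou5f1 gave -0.15 to 0.38, Nanog gave -0.23 to 0.21 and Sox2 gave -0.056 to 0.12 in the double knockout against the Pali wild type in the change to day 4. Nanog gave -0.25 to 0.19 in the double knockout against the Pali wild type in the change to day 8. Sox2 gave 0.41 to 0.69 in C129 against the Pali wild type in the change to day 4. Sox2 gave -0.65 to -0.46 in C129 against the Pali wild type in the change to day 8. The lone library left in a group is assumed to vary like the other groups. With 2 libraries a group, 1 wide pair limits how small a change could be called, and for Pou5f1 most of the spread was that of the C129 day 8 pair. A value that missed the threshold does not show that lines were alike. Rescaling shifted the median gene of a library by less than 0.1 on the log2 scale.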
